A study of Mus musculus with 28 samples.

Results

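C2C12 is a mouse muscle line whose myoblasts fuse into multinucleate myotubes, and the series profiled it as myotubes, alone or in direct co-culture with EO771, a mouse breast cancer line. The 3 C2C12 libraries whose titles begin with R3 (1 co-cultured with EO771, 2 from C2C12 alone) are described here against the other 5 C2C12 libraries, numbered R2, R5 and R6 (3 co-cultured with EO771, 2 from C2C12 alone). These 8 libraries are all the C2C12 libraries among the 28 in the series. The R3 libraries were selected on their low muscle transcript counts, so every difference between R3 and other C2C12 libraries below is a description and carries no test. What the R number stands for is not stated in the labels. The 3 R3 libraries may be 1 round of culture, and the spread among libraries may be technical in part.

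The series holds 28 polyadenylated RNA libraries from 3 mouse lines, C2C12, EO771 and MLg, a lung fibroblast line, each grown alone or with a partner. All lines are labelled wild type and were maintained in DMEM with fetal bovine serum and penicillin-streptomycin. The groups used besides C2C12 are EO771 with C2C12 (1 R3 library, 3 other libraries), EO771 alone (2 R3 libraries, 2 other libraries), MLg alone (1 R3 library, 3 other libraries) and 4 other MLg libraries with EO771, which entered the MLg fit. How C2C12 were differentiated, and how the lines of a co-culture were parted before RNA extraction, is not stated in the labels.

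Myoblasts that carry Pax7, Myf5 and MyoD leave the cell cycle, switch on myogenin and the Mef2 factors, and fuse through the membrane proteins myomaker and myomixer. The resulting myotubes assemble sarcomeres, with embryonic and perinatal myosin heavy chains ahead of the adult fast ones, and cluster acetylcholine receptors on their surface. MyoD and myogenin bind the E-box, written CANNTG, and CAGCTG is a form of it that they favour.

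Total counts were 43.5 M in the co-cultured R3 library and 96.5 and 71.6 M in R3 alone, against 36.5 to 63.0 M in other co-cultured libraries and 54.8 and 69.0 M in other libraries alone. Levels are given as normalised CPM, counts per M of the effective (TMM-scaled) library size, where a count of 0 allows up to 0.0343 to 0.0793 CPM in the 8 libraries. The share of counts from mitochondrially encoded genes was 3.93% to 5.49% in R3 and 4.13% to 5.22% in other libraries. The labelled cell type was checked against its markers. All 6 myotube markers (Myh3, Myog, Ckm, Acta1, Tnnt3, Ttn) were detected in every R3 library, where they summed to 144 to 408 CPM on plain library totals, against 1159 to 2719 CPM in other libraries. Among markers of other cells, Adgre1 was at 0 in all 8 libraries, Ptprc reached at most 0.0207 CPM in R3 and was at 0 in the others, and Epcam reached at most 0.0415 CPM in R3 and 0.0451 CPM in the others. Other macrophage and epithelial markers were detected. Cd68 was at 1.897 to 4.045 CPM in R3 and 2.986 to 5.54 CPM in the others. Krt8 had 4.919 CPM in the co-cultured R3 library and 3.685 to 8.638 CPM in other co-cultured libraries, against at most 0.1094 CPM in C2C12 alone. Cdh1 reached 0.0838 CPM in R3 and 1.333 CPM in the others. The 4 fibroblast markers, which C2C12 also express, summed to 22190 to 28150 CPM in R3 and 21220 to 25880 CPM in other libraries, with Dcn, the proteoglycan decorin, at 992 to 1110 CPM in R3 and 1613 to 2550 CPM in the others. Over 14 genes that MLg expressed at 20 CPM or more and that stayed under 0.1 CPM in the other C2C12 libraries, R3 held 0.00683% to 0.0203% of the MLg level, against 0% to 0.0355% in the others. The R2 library stood nearest to R3 for many genes (values below), and the 3 R3 libraries were not alike in contractile genes.

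Sequences upstream of some genes that are lower in R3 are shown first, beside that of Myf5, which was not. The lower genes shown all hold CAGCTG, whereas 168 of 702 matched lower genes did (23.9%), so they are examples and not typical of that set. Myod1 and Myog, whose products bind CAGCTG, were also lower in R3, and their part in these differences was not tested. The sequences are the 250 bases before the start of each gene (RefSeq, GRCm38.p6), 5′ to 3′ on the gene's strand, with CAGCTG in capitals. Chrna1 (chr2:73580339-73580588, minus strand) encodes the alpha subunit of the muscle acetylcholine receptor, Chrng (chr1:87205561-87205810, plus strand) its fetal gamma subunit, Cav3 (chr6:112459255-112459504, plus strand) the muscle caveolin, and Myf5 (chr10:107486135-107486384, minus strand) a myoblast factor.
Chrna1: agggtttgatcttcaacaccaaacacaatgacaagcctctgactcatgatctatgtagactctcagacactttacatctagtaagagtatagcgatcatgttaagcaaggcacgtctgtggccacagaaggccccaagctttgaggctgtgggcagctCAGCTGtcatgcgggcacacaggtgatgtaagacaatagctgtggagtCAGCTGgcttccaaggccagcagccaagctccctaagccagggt
Chrng: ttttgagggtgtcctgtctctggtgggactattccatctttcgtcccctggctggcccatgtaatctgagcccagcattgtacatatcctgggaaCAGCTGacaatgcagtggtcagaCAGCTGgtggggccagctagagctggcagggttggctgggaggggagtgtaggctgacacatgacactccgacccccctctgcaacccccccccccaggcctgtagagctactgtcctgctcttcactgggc
Cav3: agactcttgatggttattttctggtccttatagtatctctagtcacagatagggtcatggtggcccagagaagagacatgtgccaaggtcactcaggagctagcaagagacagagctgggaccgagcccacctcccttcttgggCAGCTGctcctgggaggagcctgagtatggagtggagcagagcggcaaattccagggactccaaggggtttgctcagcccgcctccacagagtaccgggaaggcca
Myf5: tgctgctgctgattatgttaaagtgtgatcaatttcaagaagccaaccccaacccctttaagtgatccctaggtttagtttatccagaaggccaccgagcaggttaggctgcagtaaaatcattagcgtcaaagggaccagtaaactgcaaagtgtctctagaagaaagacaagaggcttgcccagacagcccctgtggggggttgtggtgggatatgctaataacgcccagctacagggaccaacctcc

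CAGCTG, which reads the same on both strands, began at -92 and -44 from the Chrna1 start, at -155 and -132 from the Chrng start and at -106 from the Cav3 start (in bases, with -1 the last base before the start), and was not found in the Myf5 window. Over all 27025 genes with an entry in the promoter table, 14.7% held CAGCTG in this window, and 15.0% of the 11857 that were also tested in C2C12 did. The share was 23.9% (168 of 702 matched) among genes counted as lower in R3 and 16.9% (49 of 290 matched) among genes counted as higher. It was 33.3% (18 of 54 matched) in the sarcomere and coupling lists and 4 of 8 matched genes in the neuromuscular junction list. A match is a description of the letters and not evidence of binding.

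Of 17928 genes that passed the filter on low counts, 1084 (6.05%) were lower in R3 and 456 (2.54%) were higher by at least 2-fold with no overlap, meaning that the R3 libraries lay on 1 side of the others both among co-cultured libraries and among libraries alone. The counts at 4-fold were 551 lower and 107 higher. The number of higher genes rests on the choice of libraries. It was 699 without the R2 library, 687 without the co-cultured R3 library and 733 with R5 libraries alone as the others. Log2 differences below are R3 minus other from a fit with co-culture as covariate, ± the standard error (SE), and 45.4% of all genes tested had one below 0, with a median over all genes of 0.03.

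The 10 largest differences downward were in Myl2, Fbxo40, Cav3, Myh8, Tmprss11b, Tceal7, Smpx, Actn2, Cmah and Pax7, which span -5.92 to -3.78 on the log2 scale. Myl2, the slow and cardiac regulatory myosin light chain, had 0.232 CPM in the co-cultured R3 library and 0.0572 and 0.267 CPM in R3 alone, against 3.28, 3.03 and 4.32 CPM in other co-cultured libraries and 12.8 and 20.5 CPM in other libraries alone. Smpx, a small muscle protein, reached 0.572 to 1.35 CPM in R3 and 12.5 to 30.0 CPM in the others. Fbxo40, a muscle ubiquitin ligase subunit, had 0.320 to 0.711 CPM in R3 and 4.94 to 23.7 CPM in the others. Actn2, the sarcomeric alpha-actinin of the Z-disc, had 0.183 to 1.07 CPM in R3 and 5.37 to 15.3 CPM in the others. None of these ranges overlapped. Without the co-cultured R3 library the differences were larger for Myl2 (-6.75 against -5.92), Actn2 (-4.60 against -3.86) and Fbxo40 (-5.31 against -4.69), and without R3-1 alone that of Myl2 was smaller (-5.13).

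**Figure D1:**
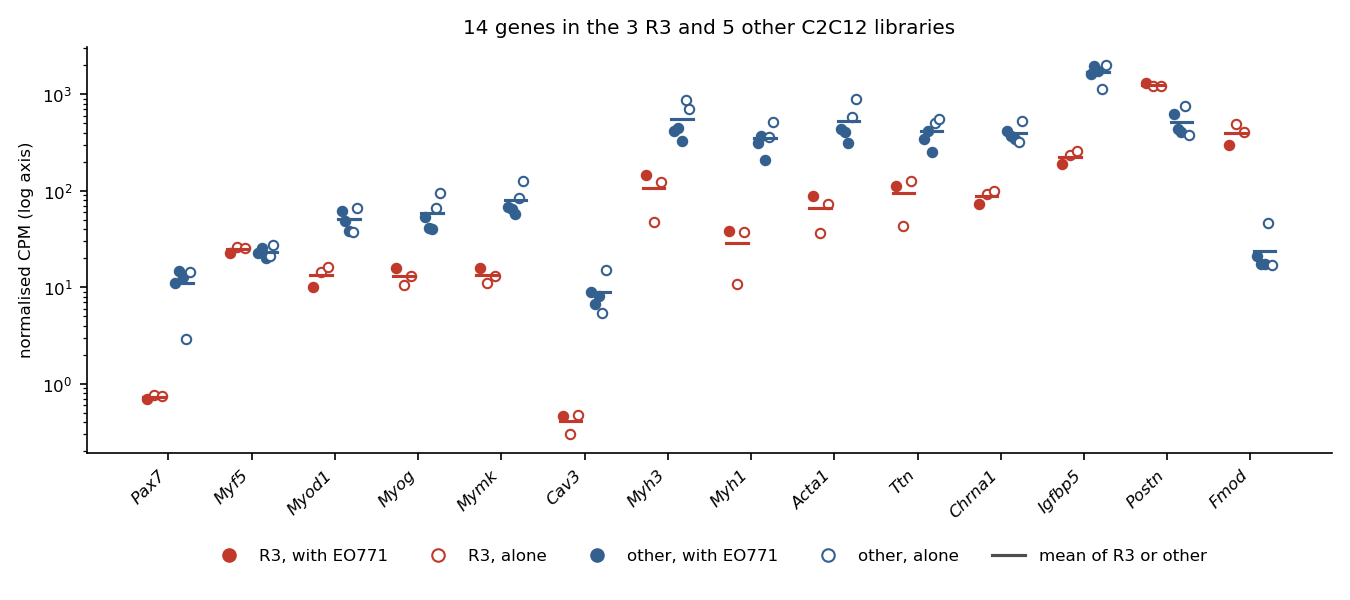
Normalised CPM (log axis) of 14 genes in each C2C12 library, R3 left of the other libraries, with filled points for co-culture with EO771, open points for C2C12 alone and a line at each mean. Myf5 was level between R3 (mean 24.7 CPM) and the others (mean 23.3 CPM), while Pax7, Myod1, Myog and the contractile genes were lower in all 3 R3 libraries and Postn and Fmod were higher.

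The myoblast factors did not move as 1 group. Of 13 satellite cell and myoblast genes tested, 4 were lower (Pax7, Myod1, Cdh15, Spry1), none was higher, and the median log2 difference was 0.05. Pax7, the satellite cell factor, had 0.697 CPM in the co-cultured R3 library and 0.754 and 0.740 CPM in R3 alone, against 11.1, 14.9 and 12.7 CPM in other co-cultured libraries and 2.90 and 14.5 CPM in other libraries alone. The R2 library, at 2.90 CPM, lay nearest to R3, and the difference was -3.78 ± 0.48. Myod1, the myogenic determination factor, had 9.99 CPM in the co-cultured R3 library and 14.4 and 16.2 CPM in R3 alone, against 61.5, 49.0 and 38.1 CPM in other co-cultured libraries and 37.6 and 67.1 CPM in other libraries alone (-1.99 ± 0.23). Cdh15, the muscle cadherin, averaged 43.1 ± 13.1 CPM in R3 (SD, n = 3) and 112 ± 33.6 CPM in the others (SD, n = 5), and Spry1, a brake on growth factor signalling, 11.9 ± 2.29 and 33.9 ± 5.28 CPM. Myf5 averaged 24.7 ± 1.77 CPM in R3 and 23.3 ± 2.97 CPM in the others, a difference of 0.05 ± 0.13 that turned to -0.004 with upper quartile scaling and to -0.046 without the R2 library. Six4, a homeobox factor of the muscle lineage, averaged 56.9 ± 4.84 CPM in R3 and 52.3 ± 9.11 CPM in the others, a difference of 0.11 ± 0.16. Itga7, the laminin-binding integrin of muscle, was lower by less than the 2-fold used for counting (-0.92 ± 0.15), and Cd34 was higher by less than that (0.77 ± 0.15).

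Among 11 differentiation transcription factors, 5 were lower (Myog, Mef2c, Tead4, Smyd1, Csrp3), none was higher and the median was -1.13. Myog, which encodes myogenin, had 15.7 CPM in the co-cultured R3 library and 10.5 and 12.9 CPM in R3 alone, against 53.2, 41.6 and 40.0 CPM in other co-cultured libraries and 66.1 and 95.0 CPM in other libraries alone. Every R3 library was below every other library, and the difference was -2.22 ± 0.26. Mef2c averaged 5.38 ± 2.23 CPM in R3 and 27.5 ± 10.5 CPM in the others (-2.39 ± 0.36), whereas its relatives Mef2a and Mef2d differed by 0.27 ± 0.16 and -0.24 ± 0.13. Smyd1, a chaperone-linked methyltransferase of muscle, averaged 2.05 ± 0.482 and 10.1 ± 3.37 CPM. Nfix, a factor of the fetal muscle programme, was at 1158 to 1562 CPM in R3 and 739 to 1041 CPM in the others. Per transcript length, Myog stood at 0.559 to 0.961 times the TPM of Myf5 in R3 and at 2.29 to 4.84 times in the other libraries, without overlap.

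Of 13 fusion and membrane repair genes, the 3 that were lower were Mymk, Mymx and Cav3. Mymk, which encodes myomaker, had 15.9 CPM in the co-cultured R3 library and 11.0 and 13.2 CPM in R3 alone, against 68.0, 65.5 and 57.7 CPM in other co-cultured libraries and 83.7 and 126 CPM in other libraries alone (-2.62 ± 0.24). Mymx, which encodes myomixer, had 1.77 to 3.00 CPM in R3 and 3.21 to 7.09 CPM in the others, so the groups lie close to each other (-1.14 ± 0.30). Without R3-1 alone its difference was under 2-fold (-0.90), and without the co-cultured R3 library it was -1.77. Cav3 had 0.297 to 0.474 CPM in R3 and 5.46 to 15.2 CPM in the others (-4.51 ± 0.40). The receptors and adhesion proteins that bring myoblasts together differed by less than 2-fold: Cdon by 0.15 ± 0.16, Boc by 0.32 ± 0.18, Cdh2 by 0.09 ± 0.14 and Jam3 by 0.15 ± 0.16. The list's median was 0.09.

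Most contractile genes were lower. The counts were 8 of 9 skeletal myosin heavy chains (median -3.63), 12 of 19 thin filament genes (median -2.27), 21 of 25 genes of the thick filament, Z-disc and M-band (median -2.45) and 13 of 19 excitation-contraction coupling genes (median -2.05). Differences were below 0 for 8 of 9, 17 of 19, 24 of 25 and 18 of 19 members of these lists. The only member counted as higher was Synm, which encodes the intermediate filament protein synemin. It had 6.81 to 11.8 CPM in R3 and 1.45 to 4.08 CPM in the others (1.81 ± 0.26). Summed over these 4 lists, R3 held 3928 CPM in the co-cultured library and 3445 and 4046 CPM alone, against 8418, 7644 and 6435 CPM in other co-cultured libraries and 10500 and 12270 CPM in other libraries alone. In bulk RNA, fewer myotubes and less muscle RNA per myotube cannot be told apart.

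**Figure D2:**
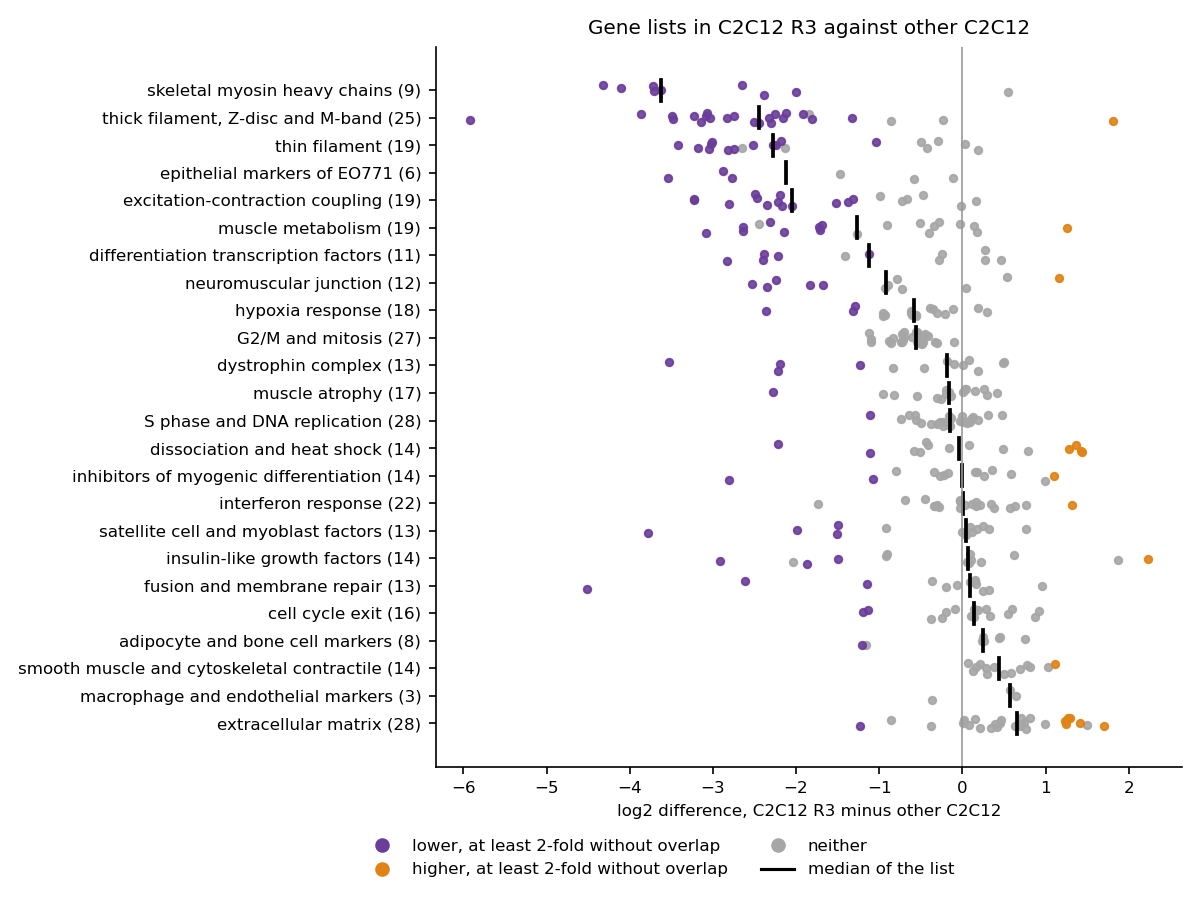
Log2 difference (x axis, C2C12 R3 minus other C2C12) of every tested member of 24 gene lists, ordered by median, with the number of members in brackets and purple or orange for members counted as lower or higher. The 4 contractile lists have medians between -3.63 and -2.05, and the extracellular matrix list has the highest median at 0.66.

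Acta1, the skeletal alpha-actin, had 87.4 CPM in the co-cultured R3 library and 36.8 and 72.8 CPM in R3 alone, against 440, 404 and 313 CPM in other co-cultured libraries and 583 and 900 CPM in other libraries alone (-3.01 ± 0.37). Ttn, which encodes titin, had 113 CPM in the co-cultured R3 library and 42.8 and 127 CPM in R3 alone, against 344, 416 and 254 CPM in other co-cultured libraries and 500 and 558 CPM in other libraries alone (-2.16 ± 0.35). Both genes were lower in each R3 library than in any other library. Mylpf, the fast regulatory light chain, averaged 61.5 ± 21.3 CPM in R3 and 499 ± 204 CPM in the others, and Tnnt3, the fast troponin T, 33.7 ± 13.7 and 226 ± 85.4 CPM. Without the co-cultured R3 library the differences were larger, at -3.76 for Acta1, -3.68 for Mylpf, -3.47 for Tnnt3 and -3.20 for Myh3. Members of the same lists that other cells also use were near level. Tpm1 differed by 0.19 ± 0.12, Tpm3 by 0.03 ± 0.11 and the actin crosslinker Flnc by -0.23 ± 0.14. Tnnt1 lay just inside the 2-fold limit (-1.03 ± 0.18) and Bin1, which shapes the T-tubule membrane, just outside it (-0.995 ± 0.17, 134 to 162 CPM in R3 and 231 to 355 CPM in the others).

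The coupling genes that sit in the T-tubule and sarcoplasmic reticulum followed the sarcomere. Ryr1, the calcium release channel, had 31.1 CPM in the co-cultured R3 library and 13.8 and 32.6 CPM in R3 alone, against 86.0, 111 and 59.5 CPM in other co-cultured libraries and 178 and 157 CPM in other libraries alone (-2.22 ± 0.35). Cacna1s, the voltage sensor that opens it, averaged 3.16 ± 1.27 CPM in R3 and 28.5 ± 9.33 CPM in the others (-3.23 ± 0.34), and Casq2, a calcium-binding protein of the store, 20.0 ± 9.37 and 186 ± 66.6 CPM. Ryr1 differed by -2.85 without the co-cultured R3 library. Atp2a1, the fast-muscle calcium pump, was lower (-2.17 ± 0.35), and its widely expressed relative Atp2a2 differed by -0.48 ± 0.12. In the dystrophin complex 4 of 13 were lower, among them Sgca, Sntb1 and Dmd, while Dag1 and Utrn differed by -0.10 ± 0.12 and 0.00 ± 0.21. Sntb1 and Dmd were also lower in the R3 library of the fibroblast line MLg alone (-4.27 ± 0.53 and -2.57 ± 0.41).

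Myosin heavy chains were compared per length, as TPM over the union of exons. The 9 genes summed to 118 TPM in the co-cultured R3 library and 34.1 and 98.3 TPM in R3 alone, against 437, 557 and 369 TPM in other co-cultured libraries and 779 and 782 TPM in other libraries alone. Embryonic Myh3 made up 69.4% to 73.6% of that sum in R3 and 49.7% to 66.2% in the others. The adult fast gene Myh1 made up 16.1% to 20.0% in R3 and 25.8% to 39.3% in the others, so neither share overlapped. The perinatal gene Myh8 stood at 0.00392 to 0.00482 times the TPM of Myh3 in R3 and at 0.00609 to 0.0222 times in the others. The R2 library lay nearest to R3 in each of these, at 66.2% for Myh3, 25.8% for Myh1 and 0.00609 for Myh8 over Myh3. The R5 and R6 libraries held 49.7% to 56.2% Myh3, 33.8% to 39.3% Myh1 and a Myh8 ratio of 0.0187 to 0.0222. In summed level R2, at 779 TPM, was far from R3. Fast Myh4 kept an overlapping ratio to Myh3, 0.0673 to 0.109 in R3 and 0.0845 to 0.1496 in the others. Reads that match several of these close copies could be split between them by the counting, so shares are less certain than the sum.

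**Figure D3:**
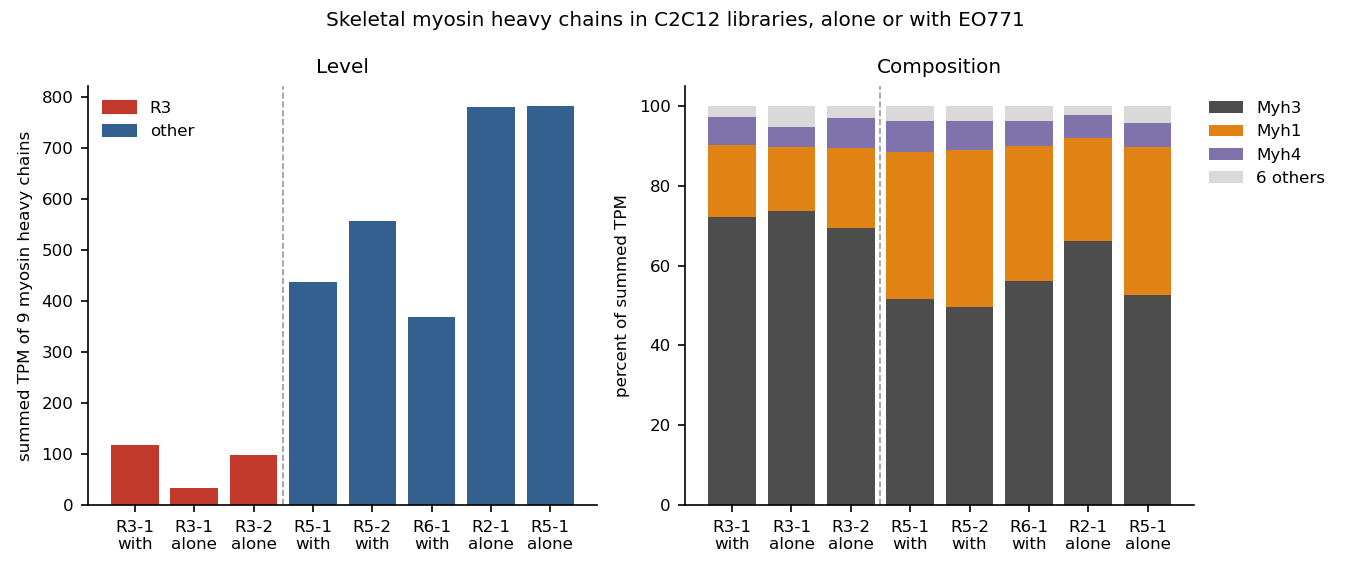
Left, summed TPM of 9 myosin heavy chain genes (bars, 1 per C2C12 library, R3 left of the dashed line). Right, the percent of that sum given by Myh3, Myh1, Myh4 and the other 6 genes. Myh3 is 69.4% to 73.6% in R3 and 49.7% to 66.2% in the others, where the highest is R2.

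Early and late members of other muscle families were set against each other in the same way, over 11 pairs in all. Besides Myog over Myf5 and Myh8 over Myh3, the ratio did not overlap for Ckm over Ckb and for Tnnt3 over Tnnt2. Ckm, the muscle creatine kinase, stood at 0.1297 to 0.3826 times the TPM of the brain type Ckb in R3 and at 1.19 to 1.76 times in the others. Tnnt3 stood at 3.93 to 4.57 times the TPM of cardiac Tnnt2 in R3 and at 5.75 to 6.87 times in the others. For the remaining 7 pairs the ratios overlapped. Acta1 over cardiac Actc1 was 6.02 to 7.28 in R3 and 5.89 to 9.22 in the others, and Tnni2 over Tnni1 was 0.962 to 1.04 in R3 and 0.799 to 1.26 in the others, although all 4 of these genes were lower in R3.

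At the neuromuscular junction, 5 of 12 genes were lower (Chrna1, Chrng, Chrnd, Chrnb1, Dok7) and Agrn was higher. Chrna1 had 72.3 CPM in the co-cultured R3 library and 92.4 and 101 CPM in R3 alone, against 414, 371 and 349 CPM in other co-cultured libraries and 319 and 525 CPM in other libraries alone (-2.24 ± 0.18). Chrng averaged 25.8 ± 13.9 CPM in R3 and 149 ± 49.1 CPM in the others (-2.53 ± 0.40, or -3.32 without the co-cultured R3 library). The 4 receptor subunits of fetal muscle were thus all lower, by -2.53 to -1.83. Agrn, whose product agrin clusters these receptors, had 321 CPM in the co-cultured R3 library and 172 and 195 CPM in R3 alone, against 96.9, 146 and 125 CPM in other co-cultured libraries and 119 and 67.6 CPM in other libraries alone (1.16 ± 0.19). Of 19 muscle metabolism genes tested, 8 were lower, among them Ckm (-2.31 ± 0.33, or -2.99 without the co-cultured R3 library), myoglobin Mb (-3.08 ± 0.48) and glycogen phosphorylase Pygm (-1.72 ± 0.18), and 1 was higher (Phkg1, 1.26 ± 0.28, at 1.25 to 2.21 CPM in R3 and 0.672 to 0.963 CPM in the others). Eno3, the muscle enolase, was level (-0.03 ± 0.17).

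Within R3, the libraries were not alike in contractile genes. In the 2 libraries from C2C12 alone, R3-2 was above R3-1 for 9 of 9 myosin heavy chains, 23 of 23 genes of the thick filament list at a mean of 1 CPM or more and 14 of 16 of the thin filament list, with median ratios of 2.13, 1.95 and 1.72. Over all 12875 genes at that level the median ratio was 0.971. The co-cultured R3 library was near R3-2 for the same 3 lists, with median ratios of 1.04, 0.978 and 1.01. The R2 library, in turn, was the nearest of the 5 others to R3 alone for 238 of the 456 higher genes (52.2%) and 350 of the 1084 lower genes (32.3%). In the contractile lists it was nearest for 3 of the 8 lower myosin heavy chains (37.5%). The counts were 1 of the 22 thick filament genes counted as lower or higher, none of the 12 lower thin filament genes and none of the 13 lower coupling genes.

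The insulin-like growth factor axis was split. Igfbp5, a secreted binding protein that differentiating myoblasts make in quantity, had 188 CPM in the co-cultured R3 library and 235 and 257 CPM in R3 alone, against 1637, 1964 and 1768 CPM in other co-cultured libraries and 1150 and 1998 CPM in other libraries alone (-2.91 ± 0.22). The imprinted RNA H19 averaged 261 ± 15.9 CPM in R3 and 768 ± 194 CPM in the others (-1.49 ± 0.21), and Igfbp2 was lower as well (-1.87 ± 0.42). Igfbp3 was higher, with 44.4 CPM in the co-cultured R3 library and 128 and 115 CPM in R3 alone, against 11.0, 10.4 and 11.4 CPM in other co-cultured libraries and 30.0 and 16.7 CPM in other libraries alone (2.23 ± 0.18). Igf1 differed by 0.62 ± 0.15. The other 9 of the 14 genes tested were not counted in either direction.

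Of 16 cell cycle exit genes 2 were lower (Cdkn1a, Cdkn1c), none was higher, and 6 had a difference below 0, with a median of 0.14. Cdkn1a, the CDK inhibitor p21 that MyoD can induce, had 105 CPM in the co-cultured R3 library and 68.0 and 67.7 CPM in R3 alone, against 199, 168 and 157 CPM in other co-cultured libraries and 156 and 249.2 CPM in other libraries alone (-1.20 ± 0.20). Cdkn1c, another CDK inhibitor, was also lower (-1.13 ± 0.35) at 0.395 to 0.7996 CPM in R3 and 0.813 to 1.81 CPM in the others. None of 27 G2/M genes was counted as lower or higher, while with TMM scaling all 27 had a difference below 0, with a median of -0.56. Their summed level was 235 CPM in the co-cultured R3 library and 232 and 219 CPM in R3 alone, against 532, 597 and 650 CPM in other co-cultured libraries and 118 and 341 CPM in other libraries alone. The R2 library was thus below R3 here. Of 28 S phase genes 1 was lower (Rrm2, -1.11 ± 0.24), and the median was -0.15.

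Among 14 inhibitors of myogenic differentiation, Tgfb3 was higher and Id2 and Hey1 were lower. Tgfb3 had 359 CPM in the co-cultured R3 library and 412 and 364 CPM in R3 alone, against 181, 157 and 135 CPM in other co-cultured libraries and 210 and 169 CPM in other libraries alone (1.10 ± 0.13), and its relative Tgfb2 lay just outside the limit (0.99 ± 0.13). Id2, whose product holds E proteins away from MyoD, averaged 17.6 ± 2.04 CPM in R3 and 36.1 ± 6.50 CPM in the others (-1.08 ± 0.17). Hey1, a Notch target, averaged 0.477 ± 0.187 and 3.31 ± 1.05 CPM (-2.81 ± 0.38).

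The 10 largest differences upward were in Cacna1g, Pcdh9, Mfap4, Fmod, Ces1d, Aoc3, Abi3bp, Adamtsl2, Megf6 and Itgbl1, at 4.62 to 2.46 on the log2 scale. Fmod, which encodes the collagen-binding proteoglycan fibromodulin, had 298 CPM in the co-cultured R3 library and 495 and 409 CPM in R3 alone, against 20.9, 17.6 and 17.4 CPM in other co-cultured libraries and 46.5 and 17.2 CPM in other libraries alone (3.90 ± 0.26). Mfap4, a microfibril-associated protein, had 12.9 to 15.4 CPM in R3 and 0.257 to 1.87 CPM in the others, and Cacna1g, a T-type calcium channel, 8.87 to 10.1 CPM in R3 and 0 to 1.25 CPM in the others. The highest of the others was the R2 library for both genes. Without it the differences were 4.66 for Mfap4 and 5.82 for Cacna1g, and without the co-cultured R3 library that of Cacna1g was 3.82.

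In the extracellular matrix list, 6 of 28 were higher (Thbs1, Col6a2, Col6a3, Col8a1, Postn, Tnc), Loxl2 was lower and the median was 0.66. Postn, which encodes periostin, had 1314 CPM in the co-cultured R3 library and 1220 and 1219 CPM in R3 alone, against 631, 437 and 410 CPM in other co-cultured libraries and 754 and 383 CPM in other libraries alone (1.24 ± 0.21). Thbs1, thrombospondin, averaged 12330 ± 898 CPM in R3 and 3702 ± 1090 CPM in the others (1.71 ± 0.22). Col6a3, a chain of collagen VI, averaged 1595 ± 137 and 641 ± 126 CPM (1.30 ± 0.17), and Tnc, tenascin C, 248 ± 9.66 and 105 ± 27.4 CPM (1.41 ± 0.17). The most abundant members were nearer to level, with 0.47 ± 0.16 for fibronectin Fn1 and 0.21 ± 0.12 for Col3a1. The summed list took 118700 CPM in the co-cultured R3 library and 117000 and 112700 CPM in R3 alone, against 75110, 86510 and 81770 CPM in other co-cultured libraries and 88520 and 75280 CPM in other libraries alone. With TMM scaling all 14 smooth muscle and cytoskeletal genes were above 0, with Ccn1 counted as higher (1.11 ± 0.15) and Acta2 at 0.59 ± 0.18.

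Whether R3 and other C2C12 respond differently to EO771 was tested as an interaction, since co-culture played no part in choosing the libraries. edgeR called 0 of 19218 genes (0%) at an adjusted p under 0.05, with 851 (4.43%) at an unadjusted p under 0.05, and the DESeq2 Wald test called 33. Without R5-1 alone edgeR called 32 genes, among them Mki67, a proliferation marker (-3.26, adjusted p = 0.0187), and with no filter on low counts 161. The only co-cultured R3 library is 1 library, so its spread is taken from the other groups. The R3 libraries were chosen on muscle transcripts, so the responses of contractile genes are given as a description. Their median response, with EO771 minus alone, was 0.50 in R3 and -0.81 in the others for the thick filament list, 0.48 and -0.82 for the thin filament list, and 0.46 and -0.60 for the coupling list. For the thick and thin filament lists the positive values in R3 rest on R3-1 alone. Against R3-2 the co-cultured R3 library had median ratios of 0.978 for the thick filament list and 1.01 for the thin filament list. For the coupling list the median ratio to R3-2 was 1.17. Myh3 differed by 0.79 ± 0.43 in R3 and by -0.99 ± 0.32 in the others, a difference of responses of 1.78 that was 1.21 without R3-1 alone and 2.60 without R3-2 alone. For titin it was 1.09, or 0.47 without R3-1 alone and 2.04 without R3-2 alone. The lowest adjusted p of all genes, for Mb, was 0.496 (edgeR). Alternative fits did call some muscle genes. Mb was called by DESeq2 and by edgeR with no filter on low counts. Its difference of responses was 2.71 in the main fit and 2.73 with DESeq2. Myh3 and titin were called by edgeR with no filter, but not by DESeq2. These calls rest on the same 1 co-cultured R3 library, and R3 was chosen on muscle transcripts, so they are given as a description. For the 27 G2/M genes the median response was 0.13 in R3 and 1.41 in the others. The value in the others depends on the library from C2C12 alone. Their G2/M sum was 118 CPM in R2 and 341 CPM in R5-1 alone, against 532 to 650 CPM in co-culture. For Mki67 the difference of responses was -2.04 in the main fit, -1.43 without the R2 library and -3.26 without R5-1 alone. EO771 RNA in the co-cultured C2C12 libraries, judged by 43 genes at 20 CPM or more in EO771 alone and under 0.1 CPM in each library of C2C12 alone, was 3.33% of the level in EO771 with C2C12 in the R3 library and 3.95% to 5.62% in the others. Its part in these differences was not tested.

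**Figure D4:**
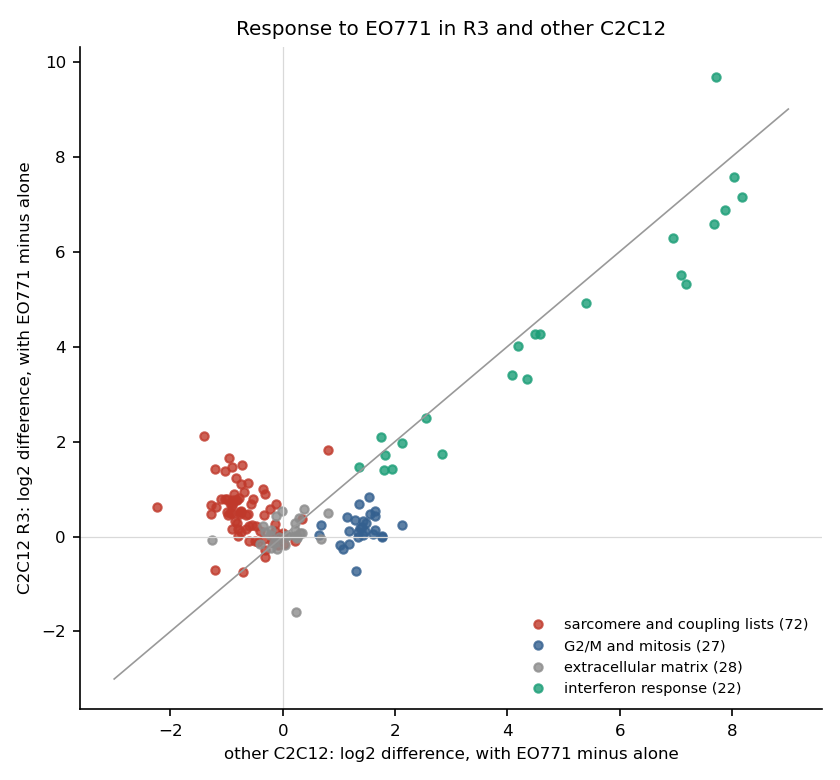
Log2 difference with EO771 minus alone in other C2C12 (x axis) and in C2C12 R3 (y axis) for the genes of the contractile and coupling lists (red), G2/M (blue), extracellular matrix (grey) and interferon response (green); the line marks equal responses. All 27 G2/M genes and 19 of 22 interferon genes lie below the line, as do 1 of 25 thick filament, 2 of 19 thin filament and 1 of 19 coupling genes. Of all 19218 genes tested, 9986 had a lower response in R3. The R3 response rests on 1 co-cultured library, and edgeR called 0 genes as different.

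The interferon response to EO771 was seen in both. With R3 as a covariate, edgeR called 563 genes higher (3.14%) and 53 lower (0.296%) in C2C12 with EO771 than alone, and all 22 interferon genes were among the higher. The largest increases were in Pnma5, Galnt3, Cyth4, Gm364 and the interferon gene Mx1, at 12.29 to 8.07 on the log2 scale, and each of the 5 was at most 0.0420 CPM in every library of C2C12 alone. Pnma5, Galnt3, Cyth4 and Gm364 stood at 45.5 to 290.5 CPM in EO771 alone. The 43 genes that mark EO771 RNA were at 3.33% to 5.62% of their EO771 level in co-cultured C2C12, against 0.0167% to 0.0251% in C2C12 alone, and the part of EO771 RNA in these 563 calls was not tested. The interferon genes had a median response of 4.14 in R3 and 4.43 in the others. Ifit3, an interferon-induced antiviral gene, had 296 CPM in the co-cultured R3 library and 185, 263 and 216 CPM in other co-cultured libraries, against 16.7 and 14.8 CPM in R3 alone and 12.9 and 6.69 CPM in other libraries alone. It rose by 4.40 ± 0.22 (adjusted p = 6.33e-07, edgeR). Of the 72 genes in the 4 contractile and coupling lists edgeR called 1, Myl2, which fell by 1.83 ± 0.45 (adjusted p = 0.0483). DESeq2 did not call it (adjusted p = 0.65), and edgeR lost it in 6 of 8 fits that left out 1 library (adjusted p up to 0.289). None of the 27 G2/M genes was called, with a median of 0.99.

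EO771 libraries of the same co-culture were not used to choose R3, and they carry some C2C12 RNA. That RNA comes from the C2C12 of the co-culture, so it is not independent of the choice of R3. The difference between the R3 library and the 3 others is shown for 26 contractile and coupling genes and 3 matrix genes (Postn, Lum, Eln) that stayed under 0.1 CPM in every EO771 library alone. The muscle genes summed to 29.6 CPM in the R3 library of EO771 with C2C12, against 55.9, 75.3 and 143 CPM in the other libraries. The matrix genes summed to 11.4 CPM in the R3 library, against 1.27, 2.97 and 3.32 CPM in the others. Muscle over matrix was thus 2.59 in the R3 library and 25.3 to 44.2 in the others, beside 0.164 and 1.73 to 2.44 in the C2C12 libraries of the co-culture. The EO771 libraries therefore did not hold muscle and matrix RNA in the proportions of the C2C12 libraries, and the reason was not tested. These sums are on plain library totals. The deposited names of 2 of the other EO771 libraries, R5-1 and R5-2 with C2C12, are exchanged relative to the recorded samples, which leaves the comparison with R3 as it is.

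**Figure D5:**
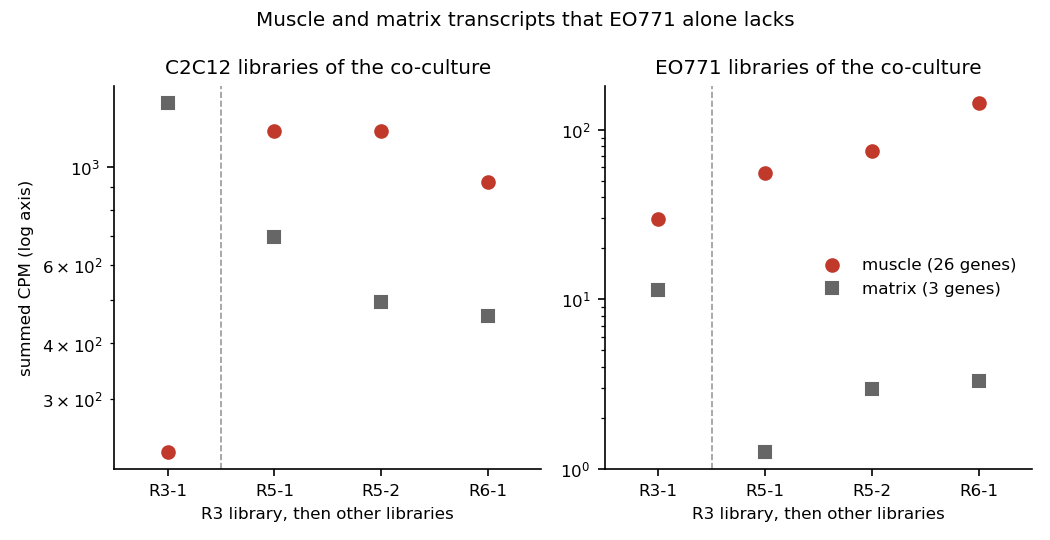
Summed CPM (log axis) of 26 muscle genes and 3 matrix genes in the C2C12 libraries (left) and EO771 libraries (right) of the co-culture, the R3 library left of the dashed line and the others right of it. In both lines the R3 library has the lowest muscle sum and the highest matrix sum.

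A fit over 8 EO771 libraries tested R3 against other EO771 with C2C12, with edgeR adjustment over all 17467 genes. It called 261 genes lower (1.49%) and 418 higher (2.39%), 679 in all. The total was 263 without EO771 with C2C12 R5-2, 269 without R5-1 of the same group, 433 and 447 without EO771 alone R5-1 and R6-2, and 1076 and 1080 without EO771 alone R3-1 and R3-2. Of the 26 muscle genes 19 could be tested; all 19 were below 0 (52.9% of all genes were), with a median of -1.67, and 1 was called. Myh1 had 5.65 CPM in the R3 library of EO771 with C2C12, against 15.4, 18.9 and 30.7 CPM in the others and 0 in the 4 libraries of EO771 alone. It fell by 1.93 ± 0.37 (adjusted p = 0.0187). Titin Ttn fell by 1.49 ± 0.34 (adjusted p = 0.0325) and nebulin Neb by 1.09 ± 0.26 (adjusted p = 0.0394), and both were also present in EO771 alone at 1.27 to 2.61 CPM. Igfbp5 had 13.1 CPM in the R3 library, against 30.9, 48.5 and 58.1 CPM in the others (-1.80 ± 0.31, adjusted p = 0.0103). Acta1 had 14.5 CPM in the R3 library and 20.8, 30.2 and 84.1 CPM in the others, and was not called (adjusted p = 0.161). With 1 library against 3, the spread of the R3 library is assumed to be that of the other groups. The R3 library and R5-1 and R6-1 of EO771 with C2C12 held only even counts, which may be doubled. The muscle transcripts here are C2C12 RNA of the same co-culture, so their values are not independent of the choice of R3.

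Matrix genes went the other way. Of 27 tested, 6 rose (Col6a1, Col6a2, Col6a3, Postn, Thbs1, Thbs2) and none fell. Thbs1 had 107 CPM in the R3 library of EO771 with C2C12, against 20.6, 25.9 and 45.5 CPM in the others (1.81 ± 0.29, adjusted p = 0.00613). Postn had 9.81 CPM in the R3 library and 1.14, 2.42 and 2.84 CPM in the others (2.22 ± 0.47, adjusted p = 0.0261). Fmod had 2.33 CPM in the R3 library and 0 to 0.163 CPM in the others (adjusted p = 0.0246). Cilp, a cartilage matrix protein that was also higher in C2C12 R3 (2.05 ± 0.27), had 16.0 CPM in the R3 library and 1.76, 2.21 and 3.05 CPM in the others (2.79 ± 0.37, adjusted p = 0.00342). Postn and Ttn lost their call in some fits that left out 1 other library, with adjusted p of 0.0516 to 0.0785 for Ttn and 0.0525 to 0.0648 for Postn, and so did Fmod, at 0.057 and 0.0608.

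Of the 1084 genes lower in C2C12 R3, 661 were also tested in EO771 with C2C12, where 13 fell (1.97%) and 15 rose (2.27%). Of the 456 higher genes 259 were tested, where 26 rose (10.0%) and none fell. As shares of the calls in EO771 with C2C12, the 13 are 4.98% of its 261 lower genes and the 26 are 6.22% of its 418 higher genes. Genes that EO771 cells use for themselves moved as well. Of 28 S phase genes 14 fell, among them Mcm5 with 166 CPM in the R3 library and 289, 269 and 275 CPM in the others (-0.75 ± 0.12, adjusted p = 0.00613), and of 27 G2/M genes 12 fell, among them Mki67 (-0.60 ± 0.14, adjusted p = 0.0336). Dll4, a Notch ligand, rose by 2.54 ± 0.35 (adjusted p = 0.00342) and Ace, the angiotensin-converting enzyme, by 2.25 ± 0.23 (adjusted p = 0.000815).

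With EO771 alone included, so that 3 R3 libraries stood against 5 others, edgeR called 10 genes lower (0.0616%) and 59 higher (0.363%). The 69 calls came to 1 without the co-cultured R3 library. They came to 13, 6 and 18 without R5-1, R5-2 and R6-1 of EO771 with C2C12, and to 36 without EO771 alone R5-1. None of the genes in the 4 contractile and coupling lists was called. Igfbp5, which EO771 alone hardly express (0 to 0.059 CPM), was among the 10 (-1.82 ± 0.31, adjusted p = 0.0214, edgeR), and it lost its call in 4 of 8 fits that left out 1 library (adjusted p up to 0.784).

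MLg alone, where 3 of 9 myosin heavy chains passed the filter on low counts, also has 1 R3 library, which was set against 3 others. edgeR called 180 genes lower (0.918%) and 168 higher (0.857%), 348 in all. The total was 160, 146 and 152 without MLg alone R5-2, R6-1 and R6-2, and 610 without MLg with EO771 R5-1. No myosin heavy chain was called. Of the thin filament list Tnnt2 rose, and of the coupling list Jph2 fell. Of the matrix list 5 of 28 fell (Col3a1, Col11a1, Col12a1, Lum, Lox) and none rose, and Postn and Thbs1 were not called (adjusted p = 0.542 and 0.946). Igfbp5 differed in the other direction from C2C12: it had 9.26 CPM in the R3 library of MLg alone, against 1.07, 1.74 and 0.904 CPM in the others (2.90 ± 0.38, adjusted p = 0.0015). The dystrophin-complex gene Sntb1 fell to 0.307 CPM in the R3 library, against 5.69, 5.93 and 6.21 CPM in the others (-4.27 ± 0.53, adjusted p = 0.001). Of the genes lower in C2C12 R3, 688 were tested in MLg, where 28 fell (4.07%) and 5 rose (0.727%); of the higher ones 360 were tested, where 13 rose (3.61%) and 11 fell (3.06%). The 28 are 15.6% of the lower calls in MLg and the 13 are 7.74% of its higher calls. The share of mitochondrially encoded counts was 9.14% in the R3 library of MLg alone and 5.14% to 6.06% in the others, and its part in these calls was not tested. The cells, time in culture and handling behind an R number cannot be told apart here.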

How the data were processed

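The authors deposited 1 table of raw read counts per gene for each library. Reads were from stranded polyadenylated RNA libraries, per the labels' protocols, and the tools listed in the submitters' processing notes are STAR 2.7.10a, Subread 2.0.1, fastp, DESeq2 and featureCounts. Neither the genome build nor the strand setting of the counting is stated, so genes that overlap on opposite strands may share reads. All 55536 gene IDs were found in GENCODE M21, and 55303 had a symbol of their own.

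Counts were analysed with edgeR 4.0.16 (R 4.3.3) after filterByExpr (minimum count 10, minimum total 15) and TMM scaling, separately for C2C12 (8 libraries), EO771 (8) and MLg (8), with quasi-likelihood tests adjusted by Benjamini-Hochberg over all genes tested at 0.05. C2C12 R3 against other C2C12 was fitted with co-culture as covariate and is reported with no p-value. The members and gene lists were chosen with earlier results of these data known. The genes with the largest differences were named among those counted or called with a mean of at least 5 CPM in 1 of the groups, and of each list the most abundant members; other members are named where they were counted or set beside those, chosen after their values were seen. TPM used the union of exons. Floors (3 counts) and depths cover counting error only. SEs come from the quasi-likelihood fit, and SDs are the spread among libraries. The fits were tested on simulated data. DESeq2 1.42.0, other scalings, no filter, a 4-fold limit, halved counts in 5 libraries that held only even counts, the R number as a block and leaving out each library were tried as alternatives. The libraries with only even counts include EO771 with C2C12 R3-1, R5-1 and R6-1. With halved counts 16884 genes were tested in R3 against other EO771 with C2C12, in place of 17467.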

Additional observations from a re-analysis of the deposited data

Results flagged for a closer look

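Of 65 values examined over the 5 other C2C12 libraries, 5 had a library far from the rest, where chance gives about 1 in 20. The R2 library from C2C12 alone stood apart in 3 of them. It held 46.5 CPM of Fmod, against 17.2 to 20.9 CPM in the other 4, and 1.25 CPM of Cacna1g, against at most 0.246 CPM, and its insulin-like growth factor genes summed to 2426 CPM, against 3367 to 3673 CPM. The fusion and membrane repair genes summed to 1104 CPM in C2C12 with EO771 R5-1, against 1494 to 1574 CPM in the other 4. Smpx reached 30.0 CPM in C2C12 alone R5-1, against 12.5 to 13.5 CPM.

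Of 72 genes examined, 2 were far apart in opposite directions in 2 lines. Igfbp5 was 2.90 higher (log2) in R3 than in other MLg alone, and its difference was -2.91 in C2C12. Scara5, a scavenger receptor, was 3.93 higher in R3 than in other MLg alone (17.7 CPM in the R3 library, against 0.993, 0.968 and 1.53 CPM in the others), and its difference was -1.85 in C2C12. The difference between the lines was not tested.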

How the results depend on the processing

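No result changed direction past its threshold under any alternative run. Of C2C12 genes, 1084 were lower in R3 and 456 higher; a 4-fold limit gave 551 and 107, R5 libraries alone as the others gave 733 higher, and leaving out 1 library gave 1036 to 1558 lower and 431 to 699 higher. The interaction, with 0 calls, gave 161 with no filter on low counts, 33 with DESeq2 and 0 to 32 when 1 library was left out. The co-culture response, with 616 calls, gave 1204 with no filter, 955 with DESeq2 and 438 to 670 when 1 library was left out. R3 against other EO771, with 69 calls, gave 132 with upper quartile scaling, 580 with no filter, 425 with DESeq2 and 1 to 89 when 1 library was left out. R3 against other EO771 with C2C12, with 679, gave 1257 with no filter, 1038 with DESeq2 and 263 to 1080 when 1 library was left out. MLg alone, with 348, gave 810 with no filter, 680 with DESeq2 and 146 to 610 when 1 library was left out. The cause was not tested.

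With the R number as a replicate block the co-culture response had 395 calls, 379 of them shared with the fit without it, and the interaction had 0. Libraries that share a number correlated in their deviations from the mean of their culture state (0.637 and 0.722 for R3, 0.405 and 0.435 for R5), others at -0.783 to 0.264. R3 was chosen on muscle transcripts in these same libraries, and taking away the mean pushes R3 and the others toward opposite signs. The correlations are thus no test of what a number shares, which the labels do not say. Fits that would leave out the single R3 library of a group could not be made for the interaction, EO771 with C2C12 and MLg alone. Each of these comparisons rests on 1 R3 library. The R3 group of C2C12 may be 1 round of culture, and depths of 36.5 to 96.5 M counts place the floor for a count of 0 at 0.0343 to 0.0793 CPM.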

Other observations

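Other lists differed between R3 and other C2C12 libraries as well, given as values without a test. Of 18 hypoxia response genes 3 were lower (Egln3, Adm, Ankrd37), with a median log2 difference of -0.58. Adm, which encodes adrenomedullin, had 4.09 CPM in the co-cultured R3 library and 1.69 and 1.41 CPM in R3 alone, against 10.1, 8.56 and 19.8 CPM in other co-cultured libraries and 9.89 and 14.1 CPM in other libraries alone. Of 14 dissociation and heat shock genes, 4 immediate early genes were higher (Fos, Fosb, Junb, Ier2) and Hspa1a and Hspb1 were lower. Fos had 115 CPM in the co-cultured R3 library and 372 and 359 CPM in R3 alone, against 73.9, 77.9 and 59.8 CPM in other co-cultured libraries and 126 and 84.5 CPM in other libraries alone. For 5 of these 6 genes the R2 library was the nearest of the others to R3 alone.

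Low-level epithelial genes were lower in R3 also where no EO771 cells were present. Krt19, a keratin, had 0.320 and 0.222 CPM in R3 alone, against 1.21 and 3.34 CPM in other libraries alone. Trim63, the muscle ubiquitin ligase MuRF1, was the member of the 17 atrophy genes that was lower (-2.28 ± 0.40).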
